A study of Mus musculus with 2 samples.

Results

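The genes described here are 10 genes of the JNK branch of the MAP kinase cascade, taken by symbol from a table of 50508 mouse genes. They were chosen by name, for their place in the cascade, and all 10 are in the table. They are the JNK genes Mapk8, Mapk9 and Mapk10, the JNK kinase genes Map2k4 and Map2k7, the mixed lineage kinase gene Map3k10, the scaffold genes Mapk8ip1, Mapk8ip3 and Spag9, and the JNK-binding protein gene Mapkbp1. Of these, 9 had a mean of at least 1 FPKM (reads per kilobase of gene length and M reads, M being 10 to the power 6) over both libraries and are called measured. Mapk10 did not pass this filter.

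The libraries come from E14 cells, an embryonic stem cell line of the 129/Ola mouse strain at passage 15 to 18, kept on gelatin with 15% serum and leukemia inhibitory factor. The cells received a scramble siRNA or an siRNA against Mettl8 with a lipid reagent and were harvested 72 h later. The study's title asks whether Mettl8 acts on differentiation by holding back the JNK pathway. Both groups share the line, the medium and the transfection, no untransfected cells were analysed here, and each group has 1 library, although the series record speaks of triplicates.

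JNK kinases are activated in a chain. A MAP3K phosphorylates the MAP2Ks MKK4 and MKK7, which phosphorylate a threonine and a tyrosine of JNK, and JNK then phosphorylates transcription factors such as c-Jun. JIP scaffold proteins hold the members of the chain together, and JNK is known to be needed for the normal lineage choice of mouse embryonic stem cells. JNK1 and JNK2 are made in most tissues, while JNK3 is known mainly from brain, heart and testis.

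The targeted gene goes against its label. Under the scramble siRNA label Mettl8 stood at 0.67 FPKM, and under the Mettl8 siRNA label at 100.3 FPKM, so each difference below is only that between libraries as labelled. Depth was 28.5 and 27.8 M reads, rebuilt from the values. All 6 stem cell markers were measured, led by Dppa5a at 578 and 564 FPKM and Nanog at 175 and 173 FPKM. No fibroblast marker (0 of 6) and no cardiomyocyte marker (0 of 4) reached a mean of 1 FPKM, with summed levels from 0.84 to 1.55 FPKM. Of 7 neuronal markers 2 did, Tubb3 (17.9 and 17.9 FPKM) and Stmn2 (11.4 and 12.8 FPKM), while the neuronal splicing factor gene Rbfox3 was 0.02 and 0.04 FPKM and Dcx 0.00 and 0.01 FPKM. In such bulk RNA, fewer cells of a type and less RNA per cell cannot be told apart.

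The stretch that is phosphorylated shows how alike the 3 JNK genes are at the point where the chain acts on them, and how far their transcripts still differ. Shown are 63 coding bases of each gene from GENCODE M21 (GRCm38), 5′ to 3′ on the gene's strand, with the codons of the threonine, proline and tyrosine of the activation loop in capitals. They lie in 1 exon each, at chr14:33392976-33393038 on the minus strand for Mapk8, chr11:49872803-49872865 on the plus strand for Mapk9, and chr5:102989654-102989716 on the minus strand for Mapk10.
Mapk8: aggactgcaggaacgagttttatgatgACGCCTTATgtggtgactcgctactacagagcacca
Mapk9: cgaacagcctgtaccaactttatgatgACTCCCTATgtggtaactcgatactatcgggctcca
Mapk10: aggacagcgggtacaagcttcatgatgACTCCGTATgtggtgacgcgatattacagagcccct
Mapk8 and Mapk9 shared 46 of the 63 bases (73.0%), Mapk8 and Mapk10 50 (79.4%), and Mapk9 and Mapk10 47 (74.6%). The longest identical run in each pair was 11 bases. Of all 75-base stretches of the annotated transcripts of each JNK gene, none (0%) occurred in a transcript of another gene, so reads of that length could be assigned to 1 of them. With 36-base stretches the share was 0.745% for Mapk8, 0% for Mapk9 and 0.0356% for Mapk10. The read length is not given in the sources used here.

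The pair of JNK-activating kinases is compared in the same way. Their activation loop carries a serine and a threonine that MAP3Ks phosphorylate. The 69 bases below lie at chr11:65706987-65707055 on the minus strand for Map2k4 and chr8:4244535-4244603 on the plus strand for Map2k7, in the same annotation. Capitals mark the codons from that serine to that threonine.
Map2k4: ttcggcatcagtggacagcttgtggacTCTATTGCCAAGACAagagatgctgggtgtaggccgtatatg
Map2k7: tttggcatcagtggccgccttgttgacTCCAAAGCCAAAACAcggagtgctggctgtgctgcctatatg
They shared 50 of 69 bases (72.5%), with a longest identical run of 11 bases.

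Both broadly expressed JNK genes were present at a few FPKM, and the third was close to absent. Mapk8, which encodes JNK1, was 3.59 FPKM (3.37 to 3.83, 95% Poisson interval of the reads) in the library labelled scramble siRNA and 3.68 FPKM (3.45 to 3.92) in the library labelled Mettl8 siRNA. Mapk9, which encodes JNK2, was 5.06 FPKM (4.75 to 5.39) and 4.85 FPKM (4.54 to 5.17). For each gene the intervals of the libraries overlap, and they cover counting error only, since no culture was repeated in the table. These levels rest on 946 and 947 reads for Mapk8 and on 977 and 915 reads for Mapk9.

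Mapk10, the gene of JNK3, was 0.03 FPKM (0.0151 to 0.0581) and 0.05 FPKM (0.0271 to 0.0799). These values stand for about 10 and 15 reads, each uncertain by up to 1.58 reads because the table is rounded to 2 decimals. The ratio of the deposited values was 1.67 with a counting interval of 0.645 to 3.82, so no difference was detectable at this depth. Mapk10 lay above 24.8% and 27.0% of protein-coding genes, against 70.3% and 70.7% for Mapk8 and 76.2% and 75.4% for Mapk9.

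**Figure D1:**
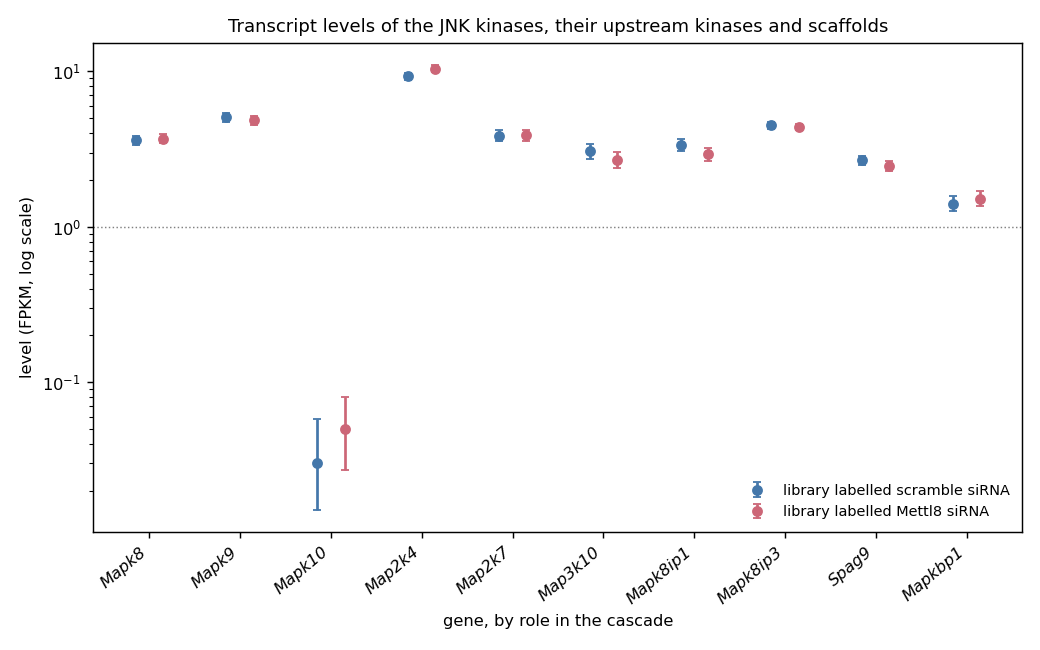
Level of each of the 10 genes in FPKM on a log axis, in order of role, with 1 point per library (blue, scramble siRNA label; red, Mettl8 siRNA label) and exact 95% Poisson intervals of the rebuilt reads; the dotted line marks 1 FPKM. The other 9 genes lie between 1.41 and 10.4 FPKM, while Mapk10 lies at 0.03 and 0.05 FPKM.

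Mapk9 took the larger part of the JNK transcripts per length. Its share of the summed FPKM of the 3 genes was 58.3% (56.1 to 60.5) in the library labelled scramble siRNA and 56.5% (54.3 to 58.8) in the other. Mapk8 took 41.4% (39.2 to 43.6) and 42.9% (40.7 to 45.2), and Mapk10 0.346% (0.174 to 0.668) and 0.583% (0.316 to 0.931). The intervals are Clopper-Pearson intervals of the share of reads, carried to the scale per length with the rest of the group held fixed. For each JNK gene the share intervals of the libraries overlap. The order of the leading pair depends on the division by length: of the reads themselves, Mapk9 held 50.5% (48.3 to 52.8) and 48.7% (46.5 to 51.0). The deposited length of Mapk8 is 9255 bases, whereas its longest annotated transcript has 5756 bases, and with longest transcripts as lengths Mapk9 took 55.7% and 54.0%. The table is by gene and does not tell apart the JNK isoforms that arise by splicing.

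The promoters of the JNK genes differ in CpG content, a feature that goes with broadly expressed genes. Shown are the 250 bases before the annotated start of Mapk8 and of Mapk10 (RefSeq, GRCm38.p6), at chr14:33447159-33447408 and chr5:103211335-103211584, both on the minus strand and printed 5′ to 3′ along the gene, with each CG in capitals.
Mapk8: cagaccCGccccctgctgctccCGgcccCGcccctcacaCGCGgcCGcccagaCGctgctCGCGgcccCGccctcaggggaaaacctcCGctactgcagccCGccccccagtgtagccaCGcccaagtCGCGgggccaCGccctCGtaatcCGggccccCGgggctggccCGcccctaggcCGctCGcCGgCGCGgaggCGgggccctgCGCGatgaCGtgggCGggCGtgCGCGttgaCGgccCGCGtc
Mapk10: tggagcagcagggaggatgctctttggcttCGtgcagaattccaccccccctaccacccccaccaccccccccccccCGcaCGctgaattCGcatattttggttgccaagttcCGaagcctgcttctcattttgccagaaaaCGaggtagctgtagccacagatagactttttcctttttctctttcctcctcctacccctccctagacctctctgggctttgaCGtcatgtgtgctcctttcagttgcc
The first holds 36 CG and the second 7. Over the whole 300-base windows of the table, which include 50 bases after the start, the observed to expected CpG ratio was 1.01 for Mapk8, 0.697 for Mapk9 and 0.393 for Mapk10. The table holds a second start for Mapk8 and for Mapk10, with ratios of 0.113 and 0.251, so the lowest window of the JNK genes belongs to Mapk8. Of the 9 genes found in the promoter table, Mapk10 was the only one without a window at 0.6 or more, while each of the other 8 had one. That count is by gene and takes the highest window of each. Counted by window, 57.1% of the 14 windows of these genes reached 0.6, against 35.8% of all 32851 windows. No test was made of this feature, and no methylation was measured here.

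Map2k4 had the highest level of the 10 genes. It encodes MKK4, which phosphorylates JNK and also p38. Its level was 9.28 FPKM (8.77 to 9.81) in the library labelled scramble siRNA and 10.4 FPKM (9.86 to 11.0) in the library labelled Mettl8 siRNA, from 1232 and 1351 reads. The second library is the higher one and the intervals do not overlap. The ratio was 1.12 with a counting interval of 1.04 to 1.21, the only ratio among the 9 measured genes whose interval leaves out 1. That interval compares a pair of libraries and not the conditions, and 13.8% of all 9965 measured protein-coding genes were higher by the same rule. Among the 6164 of them between 1.46 and 9.85 FPKM, the range of the measured genes, the share was 9.57%.

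Map2k7 encodes MKK7, which acts on JNK but not on the other MAP kinases. It was 3.84 FPKM (3.54 to 4.17) and 3.88 FPKM (3.57 to 4.21), a ratio of 1.01 with a counting interval of 0.898 to 1.13. The pair thus differed from each other in both libraries: Map2k4 made up 70.7% (68.6 to 72.8) and 72.8% (70.9 to 74.8) of their summed FPKM. With the longest annotated transcript as length the share was 66.7% and 69.0%. The level of Map2k7 carries a further limit, because in GENCODE M21 the gene Gm49320 shares 1349 bases, or 35.2%, of its exons on the same strand. No level was available for Gm49320 in either library, and whether the overlap bears on the deposited level of Map2k7 was not tested. The deposited length of Map2k7, 5359 bases, differs from the 3829 bases of its exons in M21.

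In the 250 bases before its outer annotated start, Map2k4 holds 1 match to the STAT consensus TTCNNNGAA. The window is chr11:65788360-65788609 on the minus strand (RefSeq, GRCm38.p6), printed along the gene with the match in capitals, 221 bases before the start.
Map2k4: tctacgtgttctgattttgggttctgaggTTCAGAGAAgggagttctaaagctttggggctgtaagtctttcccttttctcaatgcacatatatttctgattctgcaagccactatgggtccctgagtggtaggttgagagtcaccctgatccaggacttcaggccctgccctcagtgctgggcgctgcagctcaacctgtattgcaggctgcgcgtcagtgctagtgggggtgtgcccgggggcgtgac
The motif reads the same on both strands, and 8.30% of all 32851 windows hold it, against 1 of the 14 windows of these genes. The AP-1 motif TGANTCA, also the same on both strands, was found in 1 window of Map2k7 and in that of Map3k10, and in 7.81% of all windows. A match is a string of letters and no measure of binding.

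Map3k10 encodes MLK2, a MAP3K that can start the chain. It was 3.05 FPKM (2.75 to 3.39) in the library labelled scramble siRNA and 2.69 FPKM (2.40 to 3.01) in the library labelled Mettl8 siRNA, from 360 and 310 reads. The intervals overlap, and the ratio was 0.882 with a counting interval of 0.754 to 1.03. Among the 16 MAP3K genes of a wider list, Map3k10 held 3.64% and 3.23% of the summed FPKM, far behind Map3k7, the gene of TAK1, with 20.5% and 20.7%. Of the reads of these genes, which are not set against length, Map3k10 held 2.05% and 1.81%. Of other kinases with an MLK name, that list holds Map3k11 (MLK3) at 4.96 and 4.50 FPKM and Map3k9 (MLK1) at 1.33 and 1.19 FPKM. In M21 the gene Ttc9b on the opposite strand shares 14.8% of the exon bases of Map3k10, at 0.55 and 0.53 FPKM. The strand setting of the counting is not given in the sources used here, so reads of the shared stretch cannot be told apart.

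The scaffold genes were led by Mapk8ip3. It encodes JIP3, known from axonal transport, where it links JNK with motor proteins. Its level was 4.48 FPKM (4.28 to 4.69) and 4.40 FPKM (4.20 to 4.61), from 1856 and 1782 reads, the most reads of any of the 10 genes. The ratio was 0.982 with a counting interval of 0.920 to 1.05, the narrowest of the set.

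Mapk8ip1, the gene of JIP1, was 3.35 FPKM (3.05 to 3.68) and 2.92 FPKM (2.63 to 3.23). Its ratio of 0.872 was the lowest of the measured genes, and its counting interval of 0.757 to 1.00 just includes 1. Spag9, the gene of JIP4, was 2.67 FPKM (2.49 to 2.86) and 2.45 FPKM (2.28 to 2.63), a ratio of 0.918 (0.831 to 1.01). For all 3 scaffold genes the value was lower in the library labelled Mettl8 siRNA and the level intervals overlap. For Mapk8ip3 the difference changes sign when the libraries are rescaled to the same FPKM sum (0.056 on the log2 scale) or when it is centred on genes of like GC content (0.0045). For Mapk8ip1 and Spag9 the sign held under each setting. With the median ratio of the better expressed genes set to 1, the counting intervals of both left out 1. That scaling lowers the ratio of every gene, and the share of all genes below 1 under it was not computed. As deposited, that share was 8.76% of measured protein-coding genes.

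Within the scaffold group, Mapk8ip3 took 42.7% (40.9 to 44.4) of the summed FPKM under the scramble siRNA label and 45.0% (43.2 to 46.9) under the other, Mapk8ip1 31.9% and 29.9%, and Spag9 25.4% and 25.1%. The intervals overlap between libraries for each gene. The division by length bears on this group most, because the deposited length of Mapk8ip3, 14558 bases, is the union of the exons of 21 annotated transcripts, of which the longest has 7278 bases. With the longest transcripts as lengths Mapk8ip3 took 50.4% and 52.8%. With the fourth JIP-type gene, Mapk8ip2 (1.05 and 0.85 FPKM), added to the group it took 38.8% and 41.4%. Eme2 on the same strand shares 10.7% of the exon bases of Mapk8ip3, and Mrps34 and Nme3 on the opposite strand share 8.99% and 3.96%. These neighbours were at 4.34 and 4.48, 10.5 and 9.81, and 8.54 and 8.17 FPKM, so the level of Mapk8ip3 may hold or lack reads of theirs, which was not tested. For Mapk8ip1 the share of exon bases under another gene was 2.07%, and for Mapk8, Mapk9, Mapk10, Map2k4 and Spag9 no exon base was shared.

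**Figure D2:**
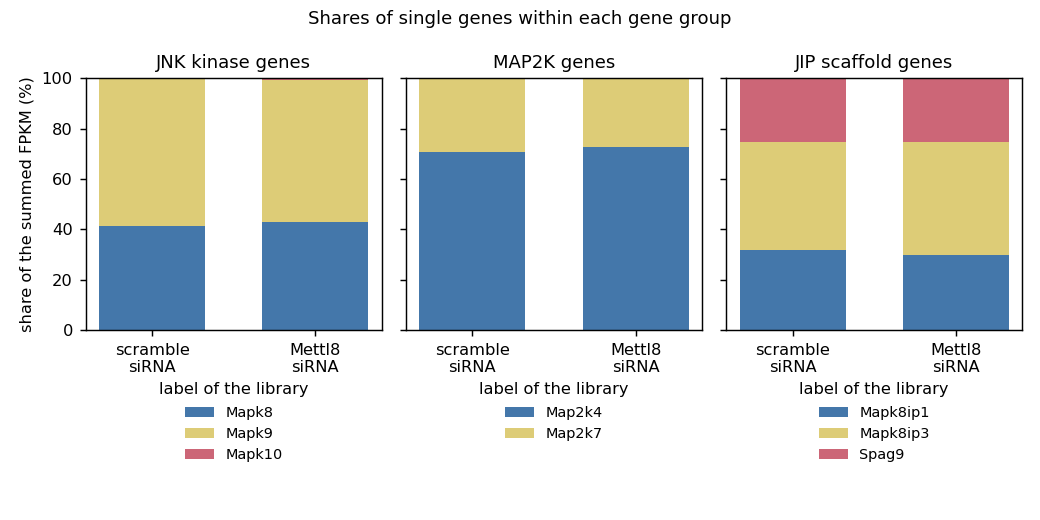
Share of each gene in the summed FPKM of its group, in percent, for the JNK kinase genes, the MAP2K genes and the JIP scaffold genes, with 1 bar per library and no error bars. Mapk9 (58.3% and 56.5%), Map2k4 (70.7% and 72.8%) and Mapk8ip3 (42.7% and 45.0%) are the largest parts in both libraries, and Mapk10 is too small to be seen.

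Mapkbp1 was the lowest measured gene. It encodes a WD-repeat protein that binds JNK, and it was 1.41 FPKM (1.25 to 1.58) in the library labelled scramble siRNA and 1.51 FPKM (1.35 to 1.69) in the library labelled Mettl8 siRNA. The ratio of 1.07 had a counting interval of 0.915 to 1.26, and the level intervals overlap. Its paralogue Wdr62, a spindle pole protein that also binds JNK, was 7.39 and 6.98 FPKM, above Mapkbp1 in both libraries. The noncoding gene Gm13999 on the opposite strand shares 8.25% of the exon bases of Mapkbp1, at 0.80 and 0.82 FPKM.

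The order of the 10 genes by level was the same in both libraries. From the highest it ran Map2k4, Mapk9, Mapk8ip3, Map2k7, Mapk8, Mapk8ip1, Map3k10, Spag9, Mapkbp1 and Mapk10. In both libraries the counting intervals separated Map2k4 from Mapk9, Spag9 from Mapkbp1, and Mapkbp1 from Mapk10. Map2k7 and Mapk8, Mapk8ip1 and Map3k10, and Map3k10 and Spag9 overlapped in both, and the other neighbours overlapped in 1 library. Of the wider list described below, the genes closest to Mapk8 over both libraries were Mapk11, Map2k7 and Dusp16, at distances of 0.090, 0.097 and 0.11 on the log2(FPKM + 1) scale. Closest to Mapk9 were Map3k11, Atf2 and Mapk8ip3, at 0.092, 0.15 and 0.19. With 2 libraries this closeness is mostly one of level.

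As a set, the genes differed little between the libraries. On the log2(FPKM + 1) scale, which understates the change of low genes, 4 of the 9 measured genes were higher in the library labelled Mettl8 siRNA and 5 lower, with differences from -0.15 for Mapk8ip1 to 0.15 for Map2k4 and a median of -0.021. Over all 13243 measured genes the median was 0.013, with 54.1% higher and 45.0% lower. The split became 6 higher and 3 lower when the libraries were rescaled to the same FPKM sum, which moved the median of all genes to 0.089. None of the 9 (0) was 1.5-fold apart on this scale, against 2.11% of all measured genes and 0.100% of measured protein-coding genes (0.0811% of those in the same range of levels), so a count of 0 is near the background. On the same scale Map2k4 and Mapk8ip1 were 1.1-fold apart, 2 of 9 beside 19.2% of protein-coding genes. Map3k10, with a plain ratio of 0.882, fell just short of that limit on this scale. A counting interval below 1 was found for 0 of the 9 and for 8.76% of protein-coding genes (7.79% in the same range of levels), and one above 1 for 1 of the 9. With 1 library per group no test between the groups could be made.

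**Figure D3:**
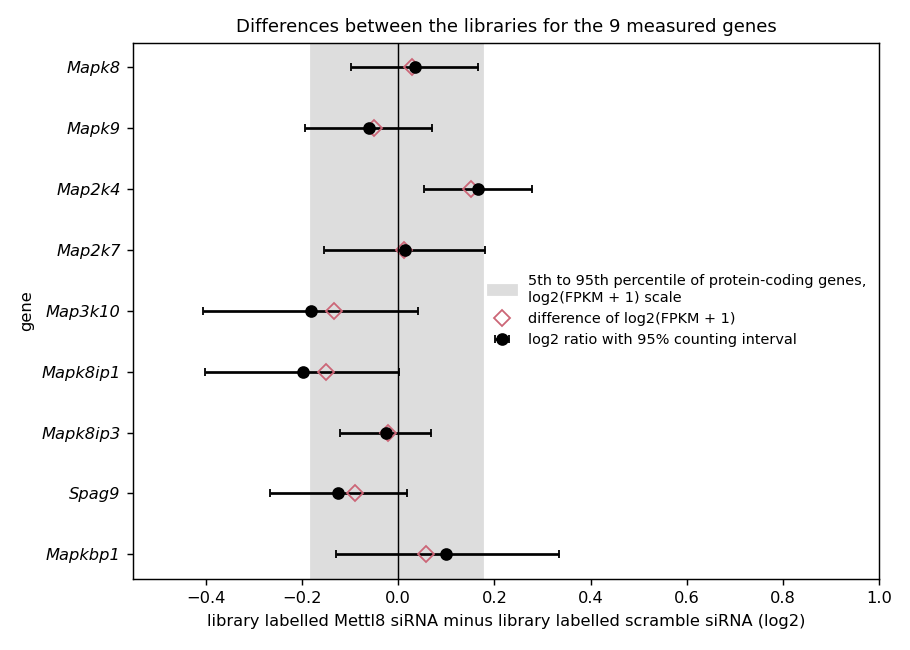
Difference between the libraries for each of the 9 measured genes, Mettl8 siRNA label minus scramble siRNA label, as the log2 ratio of FPKM with its 95% counting interval (black) and as the difference of log2(FPKM + 1) (red). The grey band spans the 5th to 95th percentile of measured protein-coding genes, -0.18 to 0.18, and all 9 red symbols lie within it.

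The differences followed GC content to a degree, as they did across the transcriptome. Among the 9965 measured protein-coding genes Spearman's rho between GC content and the difference was -0.31, a description across genes of 1 pair of libraries. The median difference ran from 0.065 in the decile of genes with the lowest GC content to -0.048 in that with the highest. Over the 9 measured genes of the set rho was -0.53. Of these, Map3k10 (64.9% GC) and Mapk8ip1 (59.6%) had the highest GC content and the largest negative differences, while Map2k4 had 45.0% and Mapk8 40.1%. The next by GC content lay nearer 0 or above it: Mapk8ip3 (57.4%, -0.021), Map2k7 (56.0%, 0.012) and Mapkbp1 (53.8%, 0.059). Centred on the median of their GC decile, the differences were -0.087 for Map3k10, -0.10 for Mapk8ip1, 0.11 for Map2k4 and -0.037 for Mapk8, which changed sign. Spag9 (44.1% GC, -0.13 after centring) and Mapk9 (45.7%, -0.088) lay further from the median of their decile than from 0. What part GC content has in these differences was not tested.

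**Figure D4:**
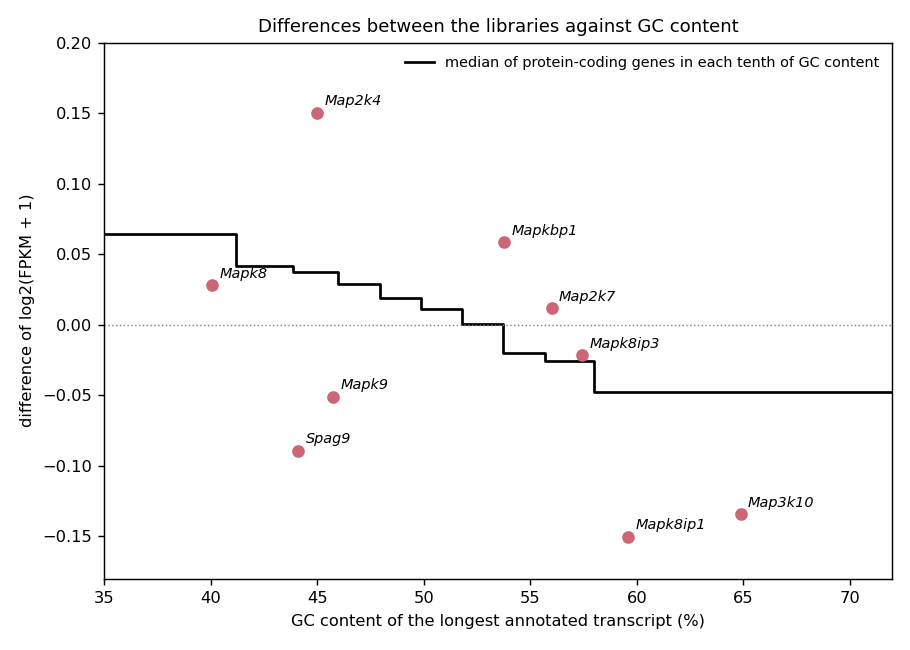
Difference of log2(FPKM + 1) between the libraries, Mettl8 siRNA label minus scramble siRNA label, against the GC content of the longest annotated transcript in percent, for the 9 measured genes (red). The black steps give the median of protein-coding genes in each decile of GC content, drawn between 35% and 72%, and run from 0.065 down to -0.048.

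A list of 55 genes that act on, with or below JNK, the 10 genes included, had 45 measured genes, of which 20 were higher, 24 lower and 0 were 1.5-fold apart, with a median of -0.021. As 0.100% of measured protein-coding genes were 1.5-fold apart, a count of 0 is at the background. The split was 32 higher and 13 lower with the same FPKM sum, and 12 and 33 with the median ratio set to 1, so it turns with the scaling. Counting intervals lay above 1 for 3 of the 45 (Map2k4, Taok2 and Rac1) and below 1 for 2 (Sh3rf1 and Jund), beside 13.8% and 8.76% of measured protein-coding genes.

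Above the JNK kinases, the MAP3K class had 12 of 16 genes measured, 5 higher and 7 lower. Map3k7 was 17.2 and 17.2 FPKM, and the largest difference in the class was that of Map3k10 described above, -0.13 on the log2(FPKM + 1) scale, with a counting interval of the ratio that includes 1. Taok2, the gene of the MAP3K TAO2, lay as far to the other side at 0.13. Its levels of 7.90 and 8.76 FPKM give a ratio of 1.11 (1.04 to 1.18), the only interval among the measured MAP3K genes that leaves out 1. The MAP4K class, kinases that act on MAP3Ks, had 6 of 7 measured, 3 higher and 3 lower, with Map4k4 at 22.3 and 21.5 FPKM and Map4k2 at 2.85 and 2.58 FPKM. Of the small GTPases and adaptors all 6 were measured, with Cdc42 at 49.4 and 49.9 FPKM. Rac1, a GTPase that switches on MLK kinases, was 17.1 and 19.2 FPKM, a ratio of 1.13 with a counting interval of 1.06 to 1.19.

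The scaffold class had 7 of 8 genes measured, 1 higher and 6 lower, with a median of -0.089. With the same FPKM sum the split was 3 higher and 4 lower. The median of the class was then -0.022, beside 0.089 for all measured genes. After centring on GC content the split was 2 higher and 5 lower, with a median of -0.10. Besides those above, Sh3rf1, the gene of the scaffold POSH, was 2.07 and 1.75 FPKM, a ratio of 0.845 (0.734 to 0.974). Arrb2, the gene of beta-arrestin 2, was 6.25 and 5.53 FPKM, a ratio of 0.885 (0.778 to 1.01) with an interval that includes 1. No test of this split was made, and these genes have GC contents from 44.1% to 59.6%. The phosphatase class had 4 of 6 genes measured, with Dusp1 at 6.24 and 6.34 FPKM and Dusp4 at 2.99 and 2.56 FPKM. Of 7 substrate genes 6 were measured, 3 higher and 3 lower. Jun, the gene of c-Jun, fell just below the filter at 0.91 and 1.07 FPKM, a ratio of 1.18 (0.863 to 1.59). Jund was 25.2 and 22.6 FPKM, a ratio of 0.899 (0.827 to 0.978), at 67.1% GC.

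**Figure D5:**
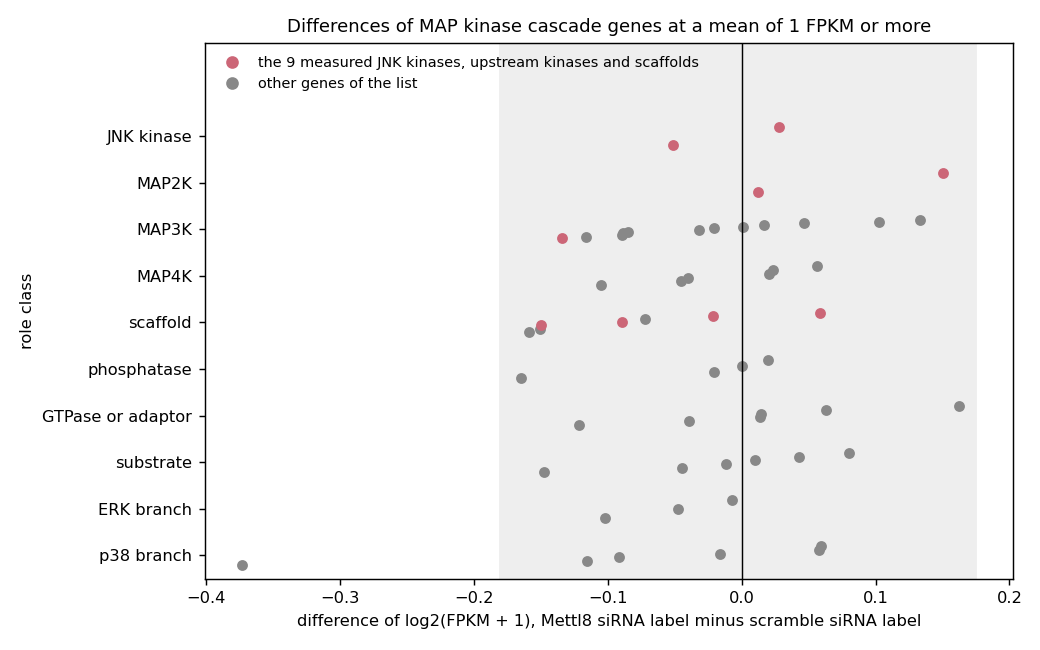
Difference of log2(FPKM + 1) between the libraries, Mettl8 siRNA label minus scramble siRNA label, for each measured gene of the JNK list, of 3 genes of the ERK branch and of the p38 branch, in rows by role; red points are the 9 measured genes of the set and grey points the other genes. The pale band spans the 5th to 95th percentile of measured protein-coding genes, and Mapk13 at -0.37 is the point outside it.

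Beside the p38 kinases, which answer to stress as JNK does, JNK transcripts were the smaller part. The 3 JNK genes summed to 8.68 and 8.58 FPKM, or 22.4% and 22.5% of the FPKM of 7 JNK and p38 genes. The 4 p38 genes made up 77.6% and 77.5%, led by Mapk14 at 19.4 and 20.2 FPKM. The share of the JNK genes depends on the length used, with 39.2% and 38.7% of the reads and 29.0% and 28.7% by longest annotated transcript, and it was below that of the p38 genes each time. Mapk13, a p38 gene, was 3.56 and 2.52 FPKM, a ratio of 0.708 (0.548 to 0.914) that rests on 153 and 106 reads, and was the largest difference among the measured MAP kinase cascade genes listed here. One level up, Map2k4 and Map2k7 held 20.4% and 8.42% of the FPKM of 6 MAP2K genes in the library labelled scramble siRNA, and 23.0% and 8.59% in the other. Map2k1, which activates ERK, held 42.1% and 41.1%. For Map2k4 the intervals of this share, 19.3 to 21.4 and 22.0 to 24.2, did not overlap between the libraries, and for Map2k7 they did. This share uses the same Map2k4 reads as the ratio above, and how often such intervals part for other genes was not computed. Within the pair with Map2k7, the share intervals of Map2k4, 68.6 to 72.8 and 70.9 to 74.8, did overlap. All of these are transcript levels, and neither JNK protein nor its phosphorylation was measured here.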

How the data were processed

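RNA sequencing of E14 stem cells was deposited as 1 table of FPKM values, rounded to 2 decimals by the authors, with a symbol and a gene length per gene and 1 column per group. The submitters' processing notes name the aligner STAR (2.4.0i), the counter featureCounts (1.5.0-p1) and the build mm10. The annotation, the strand setting, how multiply mapped reads were treated and whether cultures were pooled were not given in the sources used here.

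In each library, FPKM times length came in multiples of a fixed step: 100% of 3120 and of 3560 values, for genes under 400 bases with fewer than 30 reads, were whole within rounding plus 0.005 reads. The steps give the depth (28.5 and 27.8 M reads, of which genes of the table hold 22.2 and 21.4 M) and the reads per gene. Intervals are exact Poisson for a level and Clopper-Pearson for a ratio or share, at 95%, and cover counting error only. Differences are log2(FPKM + 1), with a pseudocount of 1, in the library labelled Mettl8 siRNA minus the other, for genes at a mean FPKM of at least 1. With 1 library per group, no p-value was computed and the limma fit foreseen for several columns did not apply. The reading of depth, the rebuilt reads and the ratio intervals were tested on simulated Poisson counts. The level and share intervals were not.

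Positions, overlaps, transcript lengths and GC content are from GENCODE M21 (GRCm38, the assembly of mm10). The deposited length equals the exon union of M21 for 7 of the 10 genes, and not for Mapk8, Map2k7 and Mapkbp1. Promoters are RefSeq windows (GRCm38.p6), which hold 9 of the 10 genes.

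All 10 genes are named whatever their value. Of the wider list, the highest gene and the largest difference of each role class are named, with genes of the same family and measured ones whose interval leaves out 1 added after their values were seen. Jun, below the filter, was also added then because c-Jun is named above as a substrate. Arrb2 met none of these rules and is named as the remaining measured gene of the scaffold class. A gene of the planned comparison of levels is not reported here. The genes and lists were chosen with earlier results of these data known. Python 3.11.15, numpy 2.4.6, pandas 2.3.3 and scipy 1.17.1 were used.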

Additional observations from a re-analysis of the deposited data

How the results depend on the processing

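The centring on GC content, the background in the same range of levels and the shares of reads in the wider kinase groups were chosen after seeing the data. No paired analysis was possible because each group has 1 library. Under each filter, scaling and pseudocount tried, 0 of the genes kept were 1.5-fold apart, in the set and in the wider list. At a 1.1-fold limit the first count was 2. Without the filter the count of 0 says little of low genes, since the pseudocount of 1 holds their differences near 0. Mapk10, with a ratio of 1.67, had a difference of 0.028 on the log2(FPKM + 1) scale. The differences of single genes moved by less than their counting interval under each of the 49 alternatives, though 2 changed sign with the same FPKM sum (Mapk9 and Mapk8ip3), 1 (Map2k7) with each of the other 2 scalings, and 2 (Mapk8 and Mapk8ip3) with GC centring; of these, none had an interval that leaves out 1. With the same FPKM sum 3 of the 9 genes were lower in place of 5, and the wider list had 32 higher and 13 lower in place of 20 and 24. With the median ratio set to 1 it had 12 higher, and 2 of the 9 genes had a ratio interval below 1. With the same sum of protein-coding reads 1 did. The shares of all genes below 1 under these scalings were not computed. At a mean of at least 5 FPKM only Map2k4 of the 10 genes was left, so that the median was 0.15 with 1 gene higher and 0 lower, and the wider list had 10 higher and 8 lower. The shares moved beyond their intervals with the length used. For Mapk9 among the JNK genes they were 50.5% and 48.7% by reads and 55.7% and 54.0% by longest transcript. For Map2k4 they were 67.8% and 70.0% by reads and 66.7% and 69.0% by longest transcript. For Mapk8ip3 they were 58.9% and 61.0% by reads, 50.4% and 52.8% by longest transcript, and 38.8% and 41.4% with Mapk8ip2 added. The table's depth limits Mapk10, whose 10 and 15 reads leave a ratio interval of 0.645 to 3.82.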
